A study of Homo sapiens with 10 samples.

Results

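The thioredoxin and peroxiredoxin system was described from 10 genes matched by symbol: thioredoxin (TXN), its cytosolic and mitochondrial reductases (TXNRD1, TXNRD2), its inhibitor (TXNIP), 5 peroxiredoxins (PRDX1, PRDX2, PRDX3, PRDX5, PRDX6) and sulfiredoxin (SRXN1). All 10 were found among the 58037 gene identifiers of the expression tables. The RNA came from A549 cells, a human lung adenocarcinoma line, and from A549/DDP cells, a subline of it that resists cisplatin (DDP). Both were grown in RPMI medium with 10% serum, at passage 10 or below, and no drug treatment is named in the labels of these libraries. Each line had 2 input libraries, which measure RNA abundance, and 2 m6A-seq libraries, in which RNA carrying N6-methyladenosine (m6A) was pulled down with an antibody and stretches enriched over the input were called as peaks. A549/DDP stands here for 1 resistant line, and nothing in the labels says whether the replicates were separate cultures, so the p-values measure the spread between libraries, which may be technical.

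Thioredoxin is a small protein that reduces disulfide bonds in other proteins and is itself recharged by thioredoxin reductase, a selenoprotein that draws on NADPH. Peroxiredoxins destroy hydrogen peroxide with a reactive cysteine, and most of them are then reduced by thioredoxin. When that cysteine is oxidised too far the enzyme stalls, and sulfiredoxin repairs it. Many of these genes are known targets of NRF2, the transcription factor of the oxidative stress response, which binds antioxidant response elements and is known to be active in A549 cells.

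The A549 and A549/DDP inputs held 29225501 to 35286514 expected counts. A further A549 pair, labelled like the first but for a closing full stop, is called the second pair and held 855034 and 982036, of which 75.2% and 73.9% lay on mitochondrial genes. That pair was kept out of the tests and is given as values and as an alternative. The labels of the A549/DDP inputs give A549 as the cell line but a DDP-resistant line as the cell type, and the title was followed. Epithelial markers summed to 8621 to 16047 TPM (abundance scaled for transcript length and library size) in the 4 main inputs, where KRT19 was at 0 in A549/DDP input 2. Markers of blood cells and endothelium stayed at or below 0.40 TPM, and those of fibroblasts summed to 2.92 to 18.9 TPM.

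Promoter sequences of RefSeq (GRCh38.p14, 250 bases before to 50 after each start) were found for 8 of the 10 genes, in 13 windows, and not for PRDX1 and PRDX6. They were searched on both strands for the antioxidant response element core TGACNNNGC, which 13.3% of all 35116 promoters hold, and for its variant TGAGNNNGC, held by 18.3%. The first was found in both promoters of TXNRD1 and in no other window of the listed genes. These 3 stretches of TXNRD1 are shown because this gene had the highest RNA level of the 10 and fell in the resistant line. They lie on the plus strand of chromosome 12 and capitals mark the core, which is reversed in the second and the third.
TXNRD1 at chr12:104215670-104215699: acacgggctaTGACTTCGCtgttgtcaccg
TXNRD1 at chr12:104215761-104215790: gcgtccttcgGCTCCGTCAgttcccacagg
TXNRD1 at chr12:104286920-104286949: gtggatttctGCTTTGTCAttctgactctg
The variant core was found in 5 windows, 1 each of TXNRD1, TXNRD2, TXNIP, PRDX2 and PRDX3. The window of SRXN1, the gene with the clearest rise, held neither form. TXNIP is known to be switched on by MondoA (MLXIP) with MLX through a pair of E-boxes, CACGNG and CACGNG with 5 bases between them. That arrangement stands in 0.057% of all promoters, 20 in number, and 1 of the 20 is a window of TXNIP. It is shown for that rarity, from the minus strand, with the pair and the spacer in capitals.
TXNIP at chr1:145996644-145996673: gatgtgCACGAGGGCAGCACGAGcctccgg
These matches describe the letters only, since binding was not measured.

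Between the lines, SRXN1 and PRDX1 rose and TXNRD1 fell in A549/DDP. The comparison asks which genes of the system differ in RNA between sensitive and resistant cells. With edgeR's quasi-likelihood test, Benjamini-Hochberg adjusted over 16406 genes, 14.9% of all genes had an adjusted p under 0.05, with 6.85% higher and 8.0% lower in A549/DDP. Of the 10 listed genes 3 passed, 2 higher and 1 lower, and under upper-quartile scaling 3 were higher and 0 lower. In bulk RNA, fewer cells that express a gene and less RNA per cell cannot be told apart. The log2 fold change (A549/DDP over A549) was above 0 in 8 of the 10, and in 8192 of all 16406 genes. Its median was 0.61 against -0.0016 over all genes. An unadjusted p under 0.05 was found for 6 of the 10 and for 5360 of all genes. The values of the lines did not overlap for 8 of the 10 genes, and the same held for 62.4% of all genes tested. The 3 calls did not hold in every edgeR fit with 1 library left out, although the direction did. Without A549/DDP input 1 the log2 fold change was 1.105 for SRXN1, 0.76 for PRDX1 and -0.58 for TXNRD1. Without A549/DDP input 2 it was 1.18, 0.96 and -0.54. Without A549 input 1 it was 0.98, 0.68 and -0.61, and without A549 input 2 it was 1.32, 1.07 and -0.51. DESeq2 on all 4 libraries called 6 of the 10, with 5 higher and 1 lower, and 24.6% of all genes. With the second pair added to the A549 inputs edgeR called 0 of the 10 and 4.1% of all genes. There 2 of the 10 had an unadjusted p under 0.05, as did 4077 of all 16517 genes tested.

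Sulfiredoxin gave the largest change of the 3. SRXN1 stood at 153 and 194 CPM (counts scaled to library size, here by TMM) in the A549 inputs and at 395 and 379 CPM in the A549/DDP inputs. The lower A549/DDP library was thus well above the higher A549 library. The change was 2.23-fold, or 1.16 on the log2 scale (SE 0.18, n = 2 per line, edgeR adjusted p = 0.0128). The direction held in all 15 alternatives and the call in 13 of them, with adjusted p = 0.0502 in edgeR without A549/DDP input 1 and 0.0723 with the second pair added.

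Of the thioredoxin reductases TXNRD1 alone passed the test, with a lower level in A549/DDP. TXNRD1, the cytosolic enzyme, had 2031 and 2184 CPM in A549 and 1458 and 1428 CPM in A549/DDP, with no overlap. It was 1.46-fold lower in A549/DDP, a log2 fold change of -0.55 (SE 0.14, n = 2 per line, edgeR adjusted p = 0.0483). This call lay at the edge of the threshold and was kept in 6 of 15 alternatives. The fold change turned positive with the second A549 pair in place of the first (0.12), where the median of all genes was 0.80. The edgeR adjusted p was 0.219 without A549/DDP input 1 and 0.258 without A549/DDP input 2. TXNRD2, the mitochondrial enzyme, had 49.5 and 32.2 CPM in A549 and 33.3 and 23.7 CPM in A549/DDP. The ranges overlapped, and its log2 fold change was -0.52 (SE 0.33, edgeR adjusted p = 0.344). TXNRD3, the third reductase, was added as a paralog and gave 0.24 (SE 0.52, edgeR adjusted p = 0.819).

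Thioredoxin itself did not pass the test. TXN had 161 and 164 CPM in A549 and 168 and 207 CPM in A549/DDP. Its log2 fold change was 0.21 (SE 0.18, edgeR adjusted p = 0.500), and with the second A549 pair in place of the first it was -2.80 (edgeR adjusted p = 3.2e-07). TXN2, the mitochondrial thioredoxin, gave 0.27 (SE 0.24, edgeR adjusted p = 0.506). Neither p shows that the levels were equal.

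TXNIP, which binds reduced thioredoxin and blocks it, was scarce and uneven. It had 143 and 5 expected counts in the A549 inputs, or 4.35 and 0.141 CPM, and 490 and 476 in the A549/DDP inputs, or 16.5 and 13.7 CPM. Both A549/DDP libraries lay above both A549 libraries, but in ratio the A549 libraries differed from each other more than the nearest libraries of the 2 lines did. The log2 fold change of 2.75 had an SE of 1.32 and an edgeR adjusted p of 0.213. With no filter beyond 1 count the change was 2.73 and passed (edgeR adjusted p = 0.0032). Without A549 input 1 it was 6.69 (edgeR adjusted p = 2.2e-06), and without A549 input 2, the library with 5 counts, it was 1.78 (edgeR adjusted p = 0.11). The second pair had 0 counts of TXNIP, where 3 counts amount to 14.2 and 11.7 CPM outside mitochondrial genes.

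Among the peroxiredoxins PRDX1 passed the test, and PRDX3, PRDX5 and PRDX6 had higher values in both A549/DDP libraries but an adjusted p above 0.05. PRDX1, the main cytosolic form, had 209 and 273 CPM in A549 and 472 and 413 CPM in A549/DDP, with no overlap. It was 1.84-fold higher, 0.88 on the log2 scale (SE 0.19, n = 2 per line, edgeR adjusted p = 0.0332), and was called in 9 of 15 alternatives and above 0 in all of them. The edgeR adjusted p was 0.155 without A549/DDP input 1 and 0.0768 without A549/DDP input 2.

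PRDX5, found in mitochondria, peroxisomes and the cytosol, had 211 and 135 CPM in A549 and 309 and 298 CPM in A549/DDP. The change of 0.81 on the log2 scale had an SE of 0.24 (edgeR adjusted p = 0.0730). TRMT112, whose RefSeq span overlaps that of PRDX5, had 3162 to 6327 expected counts in the same libraries, and PRDX5 had 4799 to 10381. PRDX3, the mitochondrial form, had 84.5 and 83.4 CPM against 120 and 143 CPM, a difference of 0.65 on the log2 scale (SE 0.18, edgeR adjusted p = 0.0654). PRDX6, which relies on glutathione in place of thioredoxin, had 105 CPM in both A549 libraries and 157 and 155 CPM in A549/DDP. Its log2 fold change was 0.57 (SE 0.16, edgeR adjusted p = 0.0673). For these 3 genes the lines did not overlap, and DESeq2 with its Wald test called all 3 higher. PRDX5 had the opposite sign with the second A549 pair in place of the first (-0.46, edgeR adjusted p = 0.103) and with both pairs (-0.087, edgeR adjusted p = 0.952). PRDX4, the form of the endoplasmic reticulum and not among the 10, gave 0.49 (SE 0.23, edgeR adjusted p = 0.201).

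PRDX2, the second cytosolic form, was scarce in every library. It had 24 and 5.45 expected counts in A549 and 28.7 and 1 in A549/DDP, where 3 counts amount to 0.085 to 0.103 CPM. The log2 fold change of 0.21 had an SE of 2.17 (edgeR adjusted p = 0.966), so no difference was detectable. Its 4 listed pseudogenes took 0 counts. Over all listed genes with pseudogenes, these took at most 0.97% of the joint counts, the highest share being that of PRDX3 in A549 input 2.

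**Figure D1:**
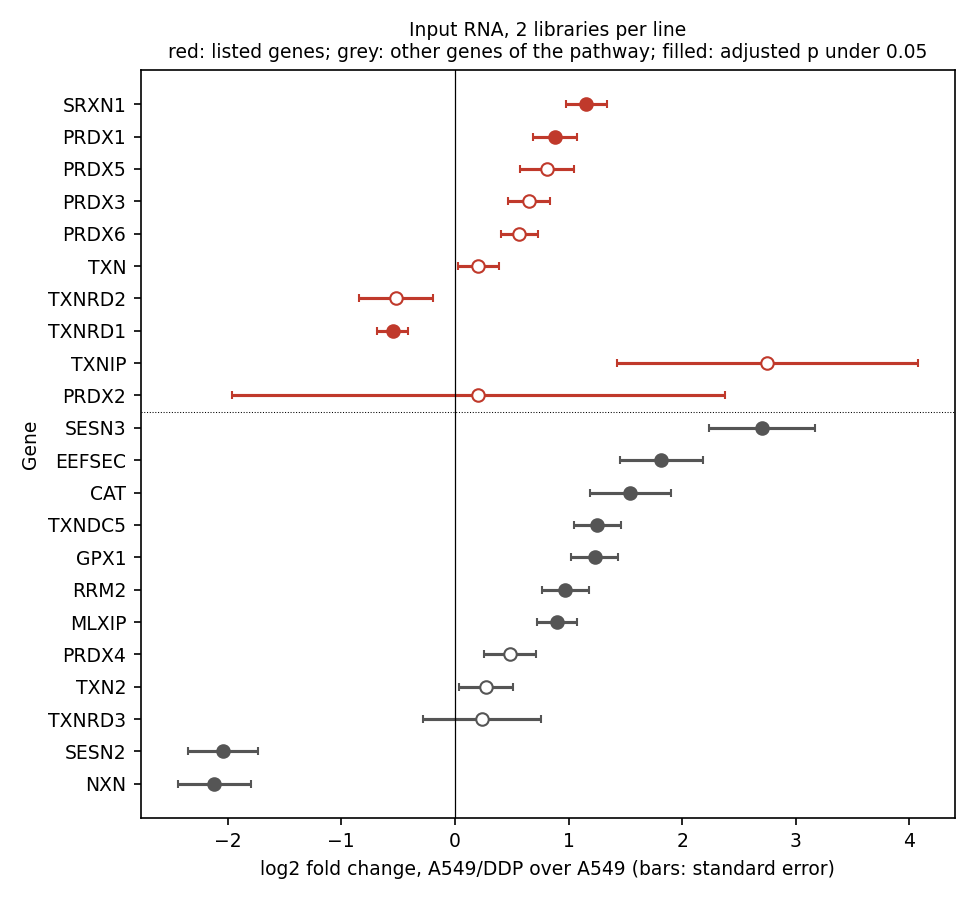
Log2 fold change of input RNA in A549/DDP over A549 for the 10 listed genes (red) and for named genes of the wider pathway (grey), with bars for the standard error; filled points have an edgeR adjusted p under 0.05. SRXN1 (1.16) and PRDX1 (0.88) lie above 0 and TXNRD1 (-0.55) below, while the bars of TXNIP and PRDX2 are the widest of the 10.

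On the TPM scale, which accounts for transcript length and so allows genes to be set beside each other, the order of the levels was led by TXNRD1 in both lines. In A549 TXNRD1 had a level of 1561 ± 177 TPM (SD, n = 2), followed by PRDX1 at 425 ± 123, PRDX5 at 373 ± 63.6 and TXN at 336 ± 40.3. Those last 3 neighbours overlapped in their library values. PRDX6 followed at 155 ± 5.34 TPM, SRXN1 at 105 ± 27.3, PRDX3 at 86.9 ± 8.46 and TXNRD2 at 55.3 ± 6.73, with SRXN1 and PRDX3 overlapping. TXNIP (1.39 ± 1.77 TPM) and PRDX2 (0.95 ± 0.59 TPM) were lowest and overlapped too.

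In A549/DDP TXNRD1 stood at 1030.4 ± 5.20 TPM (SD, n = 2), PRDX1 at 780.4 ± 68.4, PRDX5 at 627 ± 6.79 and TXN at 390.3 ± 63.4, with no overlap between these neighbours. SRXN1 (232 ± 4.90 TPM) and PRDX6 (232 ± 36.8 TPM) had the same mean and overlapped. PRDX3 was at 138 ± 18.3 TPM, TXNRD2 at 34.4 ± 19.5, TXNIP at 11.9 ± 2.67 and PRDX2 at 0.91. In the second A549 pair TXN was the highest, at 140 and 222 TPM, above TXNRD1 at 70.8 and 30.02 TPM. Without mitochondrial genes in the total, TXN stood at 345 and 518 TPM in that pair against 308 and 365 in the A549 inputs. Of TXNIP and PRDX2, 0 counts were listed there. In that pair 3 counts would be 3.51 and 3.05 CPM of the whole libraries. Outside mitochondrial genes they would be 14.2 and 11.7 CPM.

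**Figure D2:**
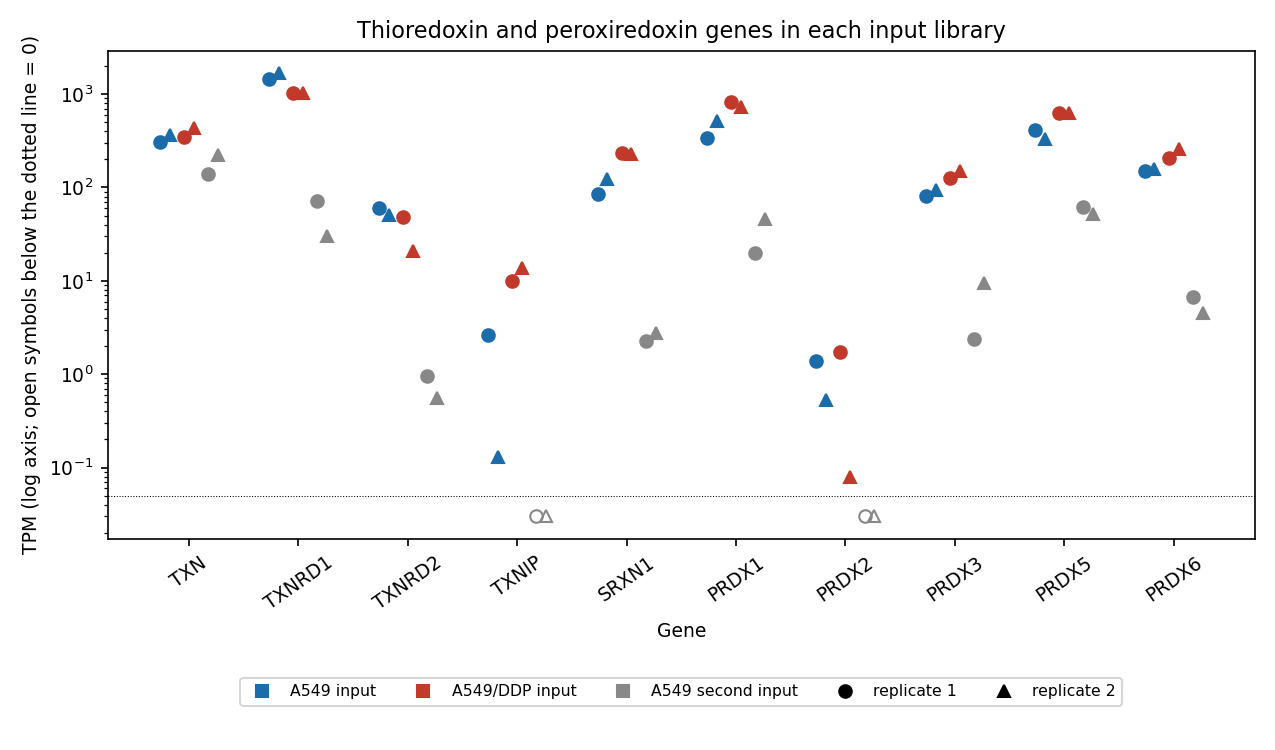
RNA level (TPM, log axis) of the 10 genes in each input library, coloured by group, with a circle for replicate 1 and a triangle for replicate 2; open symbols under the dotted line are 0. TXNRD1 is the highest gene in both lines, the A549/DDP libraries of SRXN1, PRDX1, PRDX3, PRDX5 and PRDX6 lie above those of A549, and the second A549 pair is lower for every gene with its mitochondrial RNA counted in the total (without it, TXN is at 345 and 518 TPM there).

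The effective length estimated for a gene follows the mix of its transcripts, but it also differs between libraries where that mix is the same. For TXNRD1 it was 2047 and 2135 bases in A549 and 2171 and 2155 in A549/DDP, a ratio of means of 1.03 with no overlap. For PRDX5 it was 730.1 and 681 bases against 752 and 741, a ratio of 1.06 without overlap. PRDX1 (892 and 878 against 877 and 874 bases) and PRDX3 (1510 and 1480 against 1474 and 1468) were shorter in A549/DDP, also without overlap. The weighted transcript length, a measure added after the data were seen, kept the lines apart for TXNRD1, PRDX5 and PRDX3, but not for PRDX1. For TXN the effective lengths overlapped, and the weighted lengths were barely apart, at 866 and 868.87 bases in A549 against 869 and 868.9 in A549/DDP. How many of all genes had lengths without overlap was not determined. SRXN1 had the same weighted length, 2698 bases, in every library. Its effective length still was 2589 and 2572 bases in A549 and 2579 and 2566 in A549/DDP. TXNRD2, TXNIP and PRDX2 varied widely between libraries of 1 line, and in A549/DDP TXNRD2 had effective lengths of 1062 and 1783 bases and TXNIP of 2539 and 1532. These differences were not tested.

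Of the wider pathway, 43 of 44 genes were matched and 42 were tested, since GPX7 was too low. edgeR called 9 of the 42, 7 higher and 2 lower in A549/DDP, beside 14.9% of all genes. The median log2 fold change was 0.125, against -0.0016 over all genes, and the values of the lines did not overlap for 27 of the 42 (64.3%), near the 62.4% of all genes. The calls of RRM2 and MLXIP were lost without either A549/DDP library (edgeR adjusted p = 0.0878 and 0.125 without input 1, 0.101 and 0.0886 without input 2). The call of EEFSEC was lost without A549/DDP input 1 (edgeR adjusted p = 0.0543).

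Among the 5 tested enzymes against peroxide and superoxide 2 rose, beside 6.85% of all genes. Catalase (CAT), which splits hydrogen peroxide, had 22.4 and 46.2 CPM in A549 and 95.8 and 105 CPM in A549/DDP, a log2 fold change of 1.55 (SE 0.36, edgeR adjusted p = 0.0387), which limma did not call (adjusted p = 0.0520 to 0.0862). Glutathione peroxidase 1 (GPX1), a selenoprotein that reduces peroxide with glutathione, had 55.0 and 43.0 CPM against 117 and 113 CPM, or 1.23 on the log2 scale (SE 0.21, edgeR adjusted p = 0.0157). Both lines were apart for each gene.

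Of 13 relatives and partners of thioredoxin 1 rose and 1 fell, beside 14.9% of all genes called in either direction. TXNDC5, a disulfide isomerase of the endoplasmic reticulum, went from 185 and 134 CPM to 387 and 374 CPM (log2 fold change 1.25, SE 0.20, edgeR adjusted p = 0.0141). Nucleoredoxin (NXN), a thioredoxin-like protein of Wnt signalling, went from 94.0 and 168 CPM to 27.2 and 33.2 CPM (log2 fold change -2.12, SE 0.32, edgeR adjusted p = 0.0117). It was 4.34-fold lower, a larger change than those of the 3 listed genes that passed.

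The 3 sestrins, stress proteins linked to the recycling of oxidised peroxiredoxins and to mTORC1 control, were split. SESN2 had 72.9 and 58.7 CPM in A549 and 12.6 and 19.4 CPM in A549/DDP, a log2 fold change of -2.04 (SE 0.31, edgeR adjusted p = 0.0117). SESN3 had 4.29 and 2.82 CPM in A549 and 26.9 and 19.5 CPM in A549/DDP, a log2 fold change of 2.70 (SE 0.46, edgeR adjusted p = 0.0166). It was 1.44 to 2.38 and did not pass on the TPM and FPKM scales (limma adjusted p = 0.175 to 0.187), nor with the second A549 pair in place of the first (1.47, edgeR adjusted p = 0.256). SESN2 had the opposite sign with that pair (0.36, edgeR adjusted p = 0.780), where the median of all genes was 0.80. SESN1 overlapped between the lines and did not pass.

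Of the 2 transcription factor genes of TXNIP, MLXIP rose from 69.6 and 77.0 CPM to 141 and 133 CPM (log2 fold change 0.90, SE 0.18, edgeR adjusted p = 0.0243). On the TPM and FPKM scales its change was 0.41 to 0.47 and did not pass (limma adjusted p = 0.349 to 0.431), with 53.8 and 38.7 TPM in A549/DDP against 33.0 and 35.01 in A549. RRM2 encodes the small subunit of ribonucleotide reductase, an enzyme that as a whole uses thioredoxin's electrons. It rose from 79.3 and 108 CPM to 179.8 and 188 CPM (log2 fold change 0.97, SE 0.21, edgeR adjusted p = 0.0309). The other 2 subunit genes did not pass, with values of -0.49 for RRM1 (edgeR adjusted p = 0.103) and -1.04 for RRM2B (edgeR adjusted p = 0.118) on the log2 scale, and DESeq2 called RRM2B lower. Of 7 genes for the insertion of selenocysteine, on which the reductases depend, EEFSEC, the elongation factor for that amino acid, rose from 7.23 and 10.2 CPM to 34.0 and 27.3 CPM (log2 fold change 1.81, SE 0.36, edgeR adjusted p = 0.0258). SEPSECS, the enzyme that makes selenocysteine on its tRNA, had 16.8 and 16.3 CPM in A549 and 5.30 and 0.917 CPM in A549/DDP, a log2 fold change of -2.41 that did not pass in edgeR (adjusted p = 0.113) and passed in DESeq2 (adjusted p = 0.020). edgeR called 0 of 4 methionine sulfoxide reductases, 0 of 4 alpha-arrestins related to TXNIP and not the thioredoxin-bound kinase MAP3K5. At an unadjusted p under 0.05 there was 1 methionine sulfoxide reductase and none of the others, beside 5360 of all 16406 genes. DESeq2 called 0 in each of these groups.

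**Figure D3:**
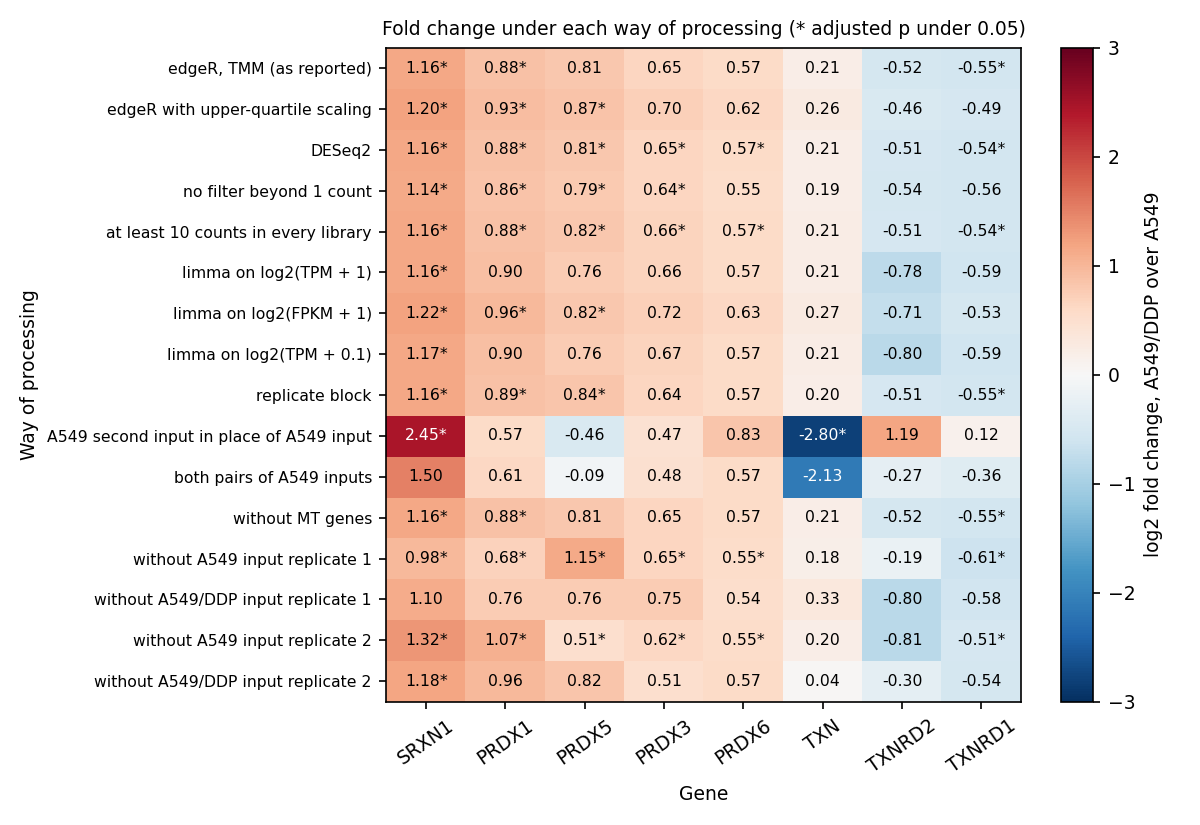
Log2 fold change (A549/DDP over A549) of 8 listed genes under the reported fit and 15 alternatives, with a star for an adjusted p under 0.05. SRXN1, PRDX1, PRDX3 and PRDX6 are above 0 throughout and SRXN1 is starred in all but 2. TXN, TXNRD1, TXNRD2 and PRDX5 change sign where the second A549 pair replaces the first. The median of all genes is 0.80 in that setting, and TXNRD1, PRDX1 and PRDX3 lie above 0 but below it.

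The m6A lists placed peaks at 7 of the 10 genes, and at TXN and SRXN1 in all 4 libraries. A peak list gives the position of a stretch of RNA enriched by the antibody and a p-value, with no height, so presence is compared and not the degree of methylation. Of the listed genes 3 had a peak in A549 m6A-seq 1, 2 in A549 m6A-seq 2, 3 in A549/DDP m6A-seq 1 and 5 in A549/DDP m6A-seq 2. Among all genes tested for expression 43.7%, 30.6%, 40.7% and 22.2% had a peak in the same lists. The lists differed in size, from 26320 and 14576 peaks in A549 to 27244 and 10661 in A549/DDP, and the depth of the pulldown libraries is unknown.

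At a mean of 100 CPM or more, a level chosen after the data were seen, 57.7%, 52.3%, 73.4% and 49.1% of 2266 genes had a peak. The 7 listed genes of that level numbered 2, 2, 3 and 4 with a peak. In each line 2 of the 10 genes had a peak in both lists, as did 27.1% of all genes tested in A549 and 19.5% in A549/DDP. No list held a peak named for TXNRD1, TXNIP or PRDX5, although TXNRD1 had the highest RNA level of the 10. Inside the TXNRD1 span and on its strand, A549 m6A-seq 2 held 1 peak named for RPL18AP3 (p-value 3.9e-06) and 1 for EID3 (0.00087), and A549/DDP m6A-seq 1 held 2 for RPL18AP3 (4.8e-06). These overlapping genes had 26.6 to 149 expected counts in the main inputs, against 43227 or more for TXNRD1, and from which gene the reads of these peaks came was not tested.

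TXN had peaks at both ends of the gene. The region at its start, chr9:110250866-110256590 on the minus strand, was called in all 4 lists, with p-values from 7.9e-13 in A549/DDP m6A-seq 1 to 0.00016 in A549/DDP m6A-seq 2. In 3 of the lists its first base lay 16 bases into the gene as RefSeq gives it, and in the fourth 83 bases before the start. It spans introns, and its exon blocks held 150 to 298 bases. The region near the end, chr9:110244009-110244208, was called in A549 m6A-seq 2 and in both A549/DDP lists, with its far edge 199 or 249 bases before the end of the gene. It was not listed in A549 m6A-seq 1, where the peak at the start had a p-value of 2.3e-05.

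SRXN1 had 2 regions in all 4 lists and another in 1 of them. The first, chr20:648363-653070, was a single block of 500 bases in both A549 lists and in A549/DDP m6A-seq 2, while in A549/DDP m6A-seq 1 it reached over an intron with 2 blocks of 550 bases in all. The second, chr20:647764-648163, held 200 to 400 bases and ended 1149 or 1249 bases before the end of the gene. The other, chr20:647414-647564, was listed in A549/DDP m6A-seq 1 only, with a p-value of 0.011. The p-values of the other regions ran from 0.00035 to 0.0098. Thus the gene whose RNA rose most clearly had the same 2 regions called in both lines. At p-values of 1e-05 or less no list held a peak of SRXN1. With lists cut to like size, A549 m6A-seq 1 and A549/DDP m6A-seq 1 held none. The lists give a second identifier, ENSG00000270299, for peaks at the same place in 3 of the 4 libraries, and that identifier had 0 counts in every input.

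The remaining peaks were each found in 1 library. TXNRD2 had 5 regions in A549 m6A-seq 1, with p-values from 1.4e-07 to 7.2e-06, spread from the start of the gene to its end. PRDX3 had 3 regions in A549/DDP m6A-seq 1, of which 2 lie near its end, chr10:119167753-119167951 and chr10:119168050-119168396, both with a p-value of 1.2e-07.

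A549/DDP m6A-seq 2 alone held peaks at PRDX1, PRDX2 and PRDX6. The 2 peaks of PRDX1, chr1:45514570-45515659 and chr1:45515806-45521637, had a p-value listed as 0, as did peaks of 38 genes in that list. PRDX6 had a peak at its start, chr1:173477365-173481317, with a p-value of 3.2e-11, and another near its end, chr1:173488166-173488314, with 1.9e-05. PRDX2 had a peak at chr19:12796870-12799607 (p-value 3.7e-06), although the input of the same number held 1 count of the gene. Genes with a peak and under 5 counts in the input of the same number made up 5.13% to 6.42% of each list. As these 3 genes had no peak in the other A549/DDP list, a difference between the lines could not be told apart from one between libraries.

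**Figure D4:**
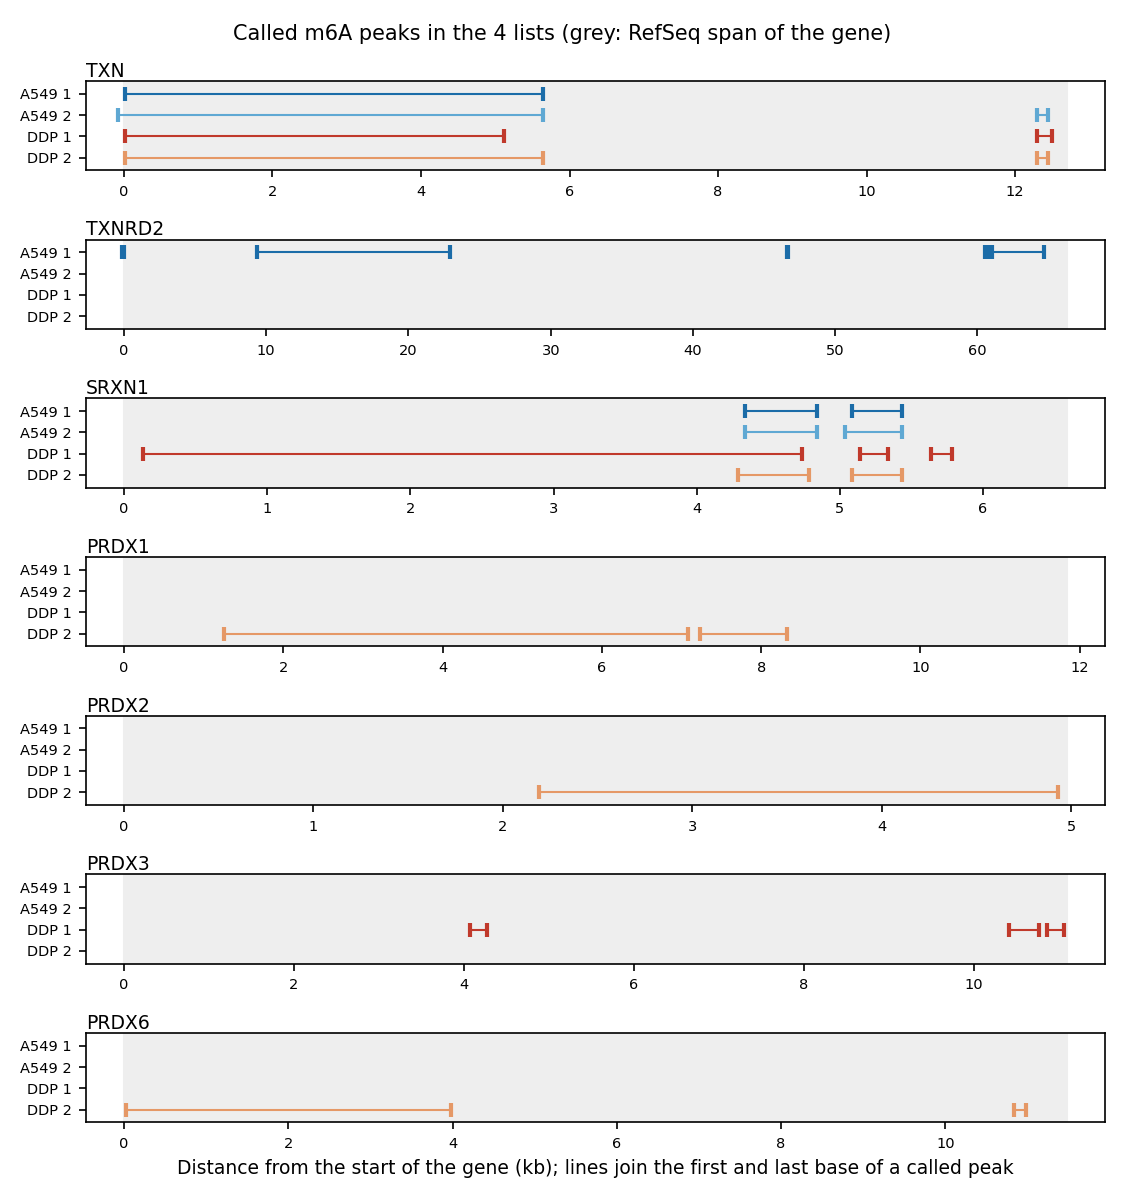
Called m6A peaks at the 7 listed genes that had any, by library, with the distance from the start of the gene in kb; a line joins the first and last base of a peak and may cross introns. TXN and SRXN1 have peaks in all 4 lists, and TXNRD2, PRDX1, PRDX2, PRDX3 and PRDX6 in 1 list each.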

How the data were processed

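For 6 input libraries the authors deposited 1 RSEM-style table each. The deposited expected counts are unscaled estimates and need not be whole. The authors' TPM and FPKM columns are relative to transcript length and library size. For 4 m6A-seq libraries the authors deposited a list of peaks each, not pooled, with exon blocks and a p-value of unstated kind. The submitters' notes name STAR, RSEM, bedtools and hg38. The peak caller and the strand setting of the counting are not given in the sources used here. Libraries were stranded (dUTP). Columns of effective and weighted length were also read.

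Groups and replicate numbers follow the sample labels. For the A549 m6A-seq libraries the numbers in the file names are exchanged. Rounded expected counts entered edgeR 4.0.16 in R 4.3.3 (filterByExpr, TMM scaling, glmQLFit and glmQLFTest, Benjamini-Hochberg), 2 against 2 inputs and no block. The SE was taken as |log2 fold change| / sqrt(F). The fit was also run on simulated counts. These varied less between libraries than the real counts did, so they give no error rate for the real data. Alternatives used DESeq2 1.42.0, limma 3.58.1 on log2(TPM + 1), log2(TPM + 0.1) or log2(FPKM + 1), other filters and scalings, the second A549 pair, a replicate block, and each library left out. Peaks, matched to genes by Ensembl identifier, were merged where exon blocks shared 1 base on the same strand. Of 58037 identifiers 56993 matched a symbol. TXNRD1, TXNRD2, PRDX1, PRDX5, PRDX6 and SRXN1 overlap other RefSeq genes, so reads there may be shared. The result of 1 gene is not reported here.

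The 10 genes, the wider list and the tests were chosen with earlier results of these data known. Named genes were the 10, wider genes with an adjusted p under 0.05, and PRDX4, TXN2 and TXNRD3.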

Additional observations from a re-analysis of the deposited data

How the results depend on the processing

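The count of all genes called was 2437. It was 4312 in DESeq2, 4010 with no filter beyond 1 count, 1492 and 1177 in limma on log2(TPM + 1) and log2(TPM + 0.1), 3758 with the second A549 pair in place of the first and 677 with both pairs. Leaving out 1 library gave 2052 (without A549/DDP input 1) to 3809 (without A549 input 2). Of the 10 listed genes 3 were called, beside 14.9% of all genes. The number was 6 in DESeq2 (24.6% of all genes) and 5 with no filter beyond 1 count (17.6%). With at least 10 counts in every library it was 6 of the 8 listed genes tested (28.1%). In limma on log2(TPM + 1) and log2(TPM + 0.1) it was 1 of the 9 tested (9.69% and 7.64%), and with both pairs 0 (4.1%). Fits with 1 library left out moved the number too, but there the line with 1 library is assumed to vary like the other. Of the wider list 9 were called, 15 with the second pair in place, 1 with both pairs, and 7 to 14 with 1 library left out, the 14 being without A549 input 2. With the replicate block 5 listed and 3536 of all genes were called, with PRDX5 (0.84, adjusted p = 0.0094) and TXNIP (4.003, adjusted p = 0.0122) added. The labels share replicate numbers, but the deviations of same-numbered libraries had a correlation of 0.0259, so the numbers were not taken as pairs.

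The second pair moved the median log2 fold change over all genes to 0.80, and leaving out A549/DDP input 1 or 2 moved it to -0.20 and -0.11. In place of the first pair it reversed TXN (-2.80), TXNRD1 (0.12), TXNRD2 (1.19), PRDX5 (-0.46), SESN2 (0.36) and NXN (0.28), of which only TXN passed. Relative to that median TXNRD1, PRDX1 (0.57) and PRDX3 (0.47) lay below, and TXNRD2, SRXN1 (2.45) and PRDX6 (0.83) above. Both pairs together reversed TXN (-2.13) and PRDX5 (-0.087). PRDX2 reversed with the replicate block (-0.77), and without A549/DDP input 1 or A549 input 2 (-3.79 to 1.79 with 1 library left out), and TXNRD3 without A549/DDP input 2 (-0.40 to 0.66). The cause of these changes was not tested. Under upper-quartile scaling PRDX5 was gained (adjusted p = 0.049) and TXNRD1 lost (0.0589).

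Restricted to p-values of 1e-05 or less, the listed genes with a peak numbered 1 and 1 in the A549 lists, 2 and 3 in A549/DDP, and 0 in both lists of either line (all genes 23.4%, 11.2%, 23.8% and 10.7%, and 6.42% and 5.92% in both). With 10661 to 10796 peaks a list, cut at 1 p-value with ties kept, they numbered 1, 2, 2 and 5, with 0 in both A549 lists and 1 in both A549/DDP lists (all genes 18.4%, 24.1%, 16.6% and 22.2%, and 8.23% and 6.78% in both). A peak in either list was found for 6 of the 10 in A549/DDP and 3 in A549, and for 43.4% and 47.3% of all genes. Taking 1 list of a line alone gave 2 to 3 for A549 and 3 to 5 for A549/DDP. The 3 regions in all 4 lists became 0 under both selections and stayed 3 with an overlap of 50% of the shorter peak.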

Other observations

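At SRXN1 and TXN the number of called peaks was similar in both lines (2, 2, 3 and 2 peaks of SRXN1 and 1, 2, 2 and 2 of TXN in A549 m6A-seq 1 and 2 and A549/DDP m6A-seq 1 and 2), while the RNA of SRXN1 rose and that of TXN did not pass the test. PRDX4, outside the 10 genes, had 1 peak in each A549/DDP list (p-values 0.00039 and 0.0076) and none in the A549 lists. With lists of like size it had a peak in A549/DDP m6A-seq 2 only, and at p-values of 1e-05 or less in no list. Its RNA did not pass the test. TXN2 had a region at its start, chr22:36476784-36481157, in all 4 lists, with p-values from 5e-10 to 0.0083. With lists of like size, or at p-values of 1e-05 or less, no region of TXN2 was in all 4. Of the 42 wider genes tested, 22, 16, 26 and 15 had a peak in the 4 lists in the same order, where 43.7%, 30.6%, 40.7% and 22.2% of all genes did.

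PRDX2 was listed at 0.08 to 1.73 TPM in the 4 main inputs, far below its cytosolic relative PRDX1 at 339 to 829 TPM, although both are known as abundant proteins.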
